A study of Euphorbia esula with 15 samples.

Results

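The KNOX and HD-ZIP III transcription factors and the KNOX repressor AS1 were followed in crown buds of leafy spurge (Euphorbia esula), a perennial weed that regrows from underground buds once its shoots are lost. All plants were of cultivar 1984-ND001 and received no glyphosate. Buds came from plants with intact shoots (0 h, n = 3 libraries), in which the bud is paradormant, that is, held back by signals from the rest of the plant, and from plants whose aerial stems had been cut off at soil level 6, 24 or 72 h earlier (n = 4 libraries each). Poly(A) RNA was sequenced, reads were assembled without a genome, and each assembled contig was named by its best match among Arabidopsis proteins. Members were the contigs whose best match was 1 of 10 Arabidopsis genes. The class I KNOX genes were STM (AT1G62360), KNAT1 or BREVIPEDICELLUS (AT4G08150), KNAT2 (AT1G70510) and KNAT6 (AT1G23380). The HD-ZIP III genes were REV (AT5G60690), PHB (AT2G34710), PHV (AT1G30490), ATHB15 or CORONA (AT1G52150) and ATHB8 (AT4G32880), and the MYB gene AS1 (AT2G37630) completed the list.

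Class I KNOX homeodomain proteins keep cells of the shoot meristem undifferentiated, in part by raising cytokinin and lowering gibberellin. AS1 keeps the class I genes KNAT1, KNAT2 and KNAT6 switched off in young leaves. HD-ZIP III proteins set the upper (adaxial) side of leaves, help to form shoot meristems and pattern the vascular tissue, and a microRNA cuts their transcripts on the lower (abaxial) side. These roles were established in Arabidopsis.

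In all, 162 of 569227 contigs were members, and they lay in 29 of 223732 components, a component being the group of contigs that the assembler placed together. The counts of member contigs were summed per component. Of the 29 sums, 12 had a mean above 5 normalized counts at some time point and were tested, among 23244 rows in all. The lowest of these 12 peaked at a time mean of 6.59, and the highest of the other 17 at 2.03. Of those 17 sums, 4 had no counts in any library. The 12 sums held 99.8% of the counts of all member contigs. Among them 9 of the 10 members were represented, and no contig in the table had PHV as its best match. The contigs of 4 of the 12 sums had more than 1 member as best match, so that near-identical relatives could share reads there. Lengths were not used, so a larger count in 1 gene than in another does not show a higher level. Library totals ran from 1847115 counts (72 h, replicate 4) to 8766393 counts at 24 h, and libraries of the same time point correlated at a Spearman rho of 0.969 to 0.985 across components.

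Over the 3 days most member transcripts moved little. STM and ATHB8 fell by 6 h, ATHB8 and KNAT6 were lower at 24 h, and by 72 h no member sum was called different from 0 h. At 6 h against 0 h, 2 of 12 sums were called, both lower, where 15.3% of all tested rows were called. At 24 h against 0 h, 3 of 12 were called, all lower, where 41.8% of all rows were called. At 72 h against 0 h, edgeR called 0 of 12, with 2 at an unadjusted p under 0.05 and 0 called by DESeq2 or limma, where 13.2% of all rows were called. Calls here are an edgeR quasi-likelihood adjusted p under 0.05, adjusted over all tested rows. At 6, 24 and 72 h the 12 sums had median log2 fold changes of -0.17, -0.17 and -0.09, against -0.00, 0.02 and 0.03 over all rows. In absolute size the median was 0.17, 0.22 and 0.18 for the members and 0.24, 0.40 and 0.24 over all rows. Between later times, 2 of 12 sums were called at 24 h against 6 h (background 33.4%), 1 at 72 h against 24 h (42.4%) and 1 at 72 h against 6 h (18.6%). The test for a difference at any time called 4 of 12, against 53.9% of all rows.

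**Figure D1:**
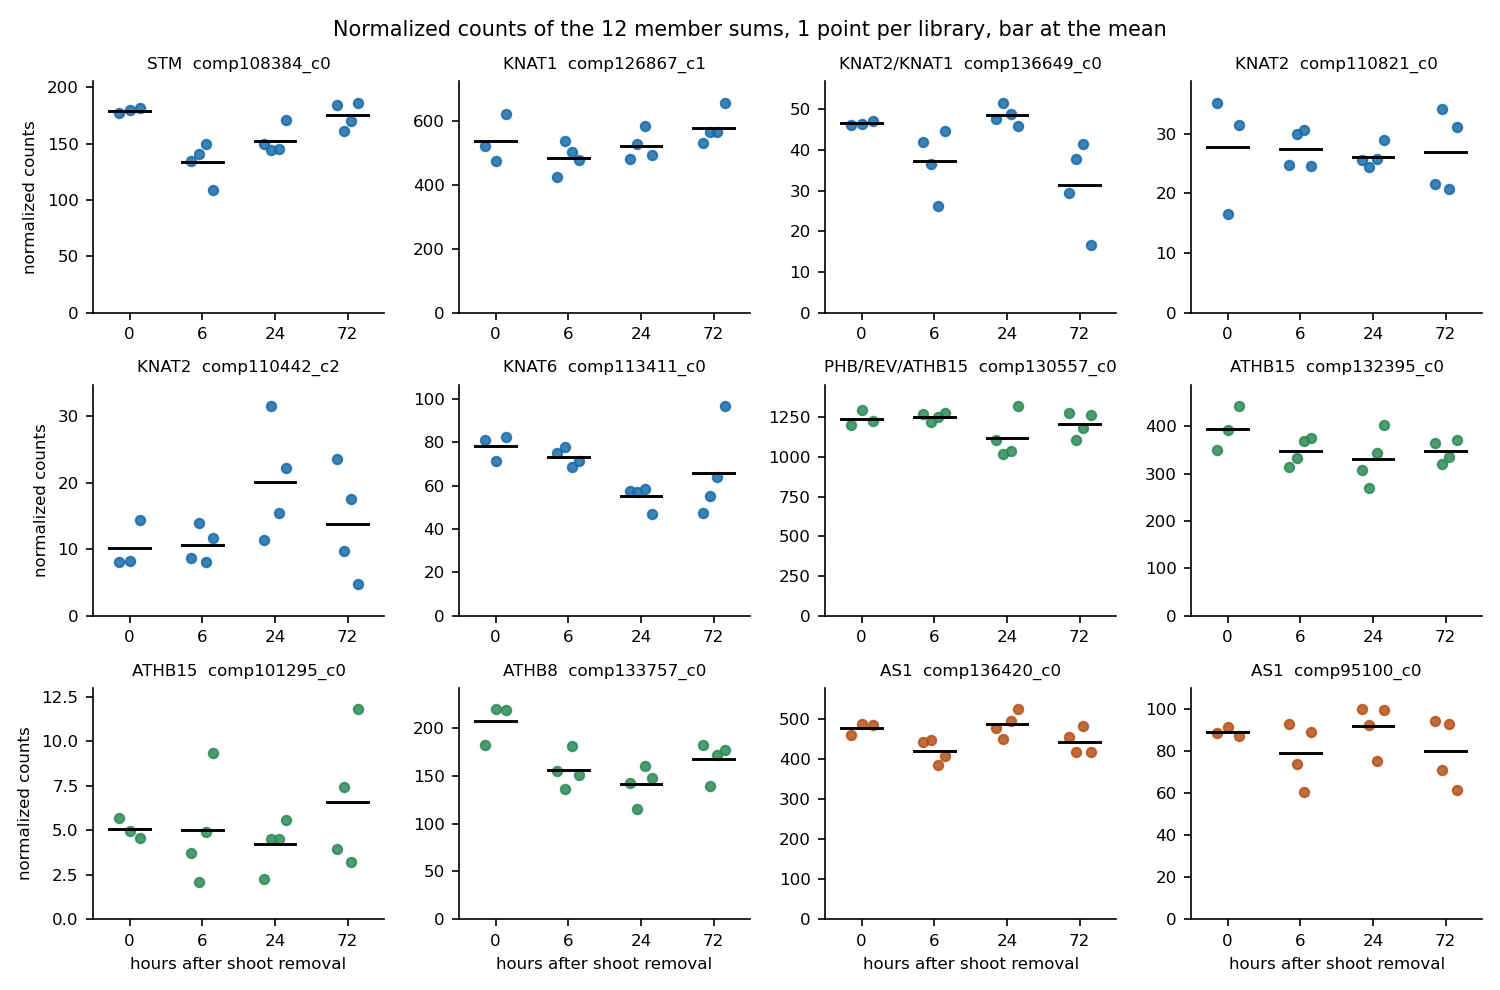
Normalized counts (vertical axes, each from 0) of the 12 member sums against hours after shoot removal, with 1 point per library and a bar at the mean of each time point. STM (top left) is lowest at 6 h, with 109 to 150.1 normalized counts against 177 to 181 at 0 h, and ATHB8 (bottom row) is lowest at 24 h.

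STM, which is needed to form and keep the shoot meristem, dipped at 6 h and was back near its starting level at 72 h. Its sum (comp108384_c0) gave 177, 180.0 and 181 normalized counts at 0 h. At 6 h the libraries gave 134, 141, 150.1 and 109. At 24 h they gave 149.6, 144, 145 and 171, and at 72 h 185, 161, 171 and 187. Every 6 h library and every 24 h library lay below all 0 h libraries, while the 72 h range enclosed the 0 h values. The mean was 134 ± 17.4 at 6 h (SD, n = 4) against 179 ± 2.21 at 0 h (SD, n = 3). The log2 fold change was -0.43 ± 0.11 (SE, edgeR adjusted p = 0.00814), and this call held under every alternative tried. At 24 h the log2 fold change from 0 h was -0.25 and missed the threshold (edgeR adjusted p = 0.0586). At 72 h against 6 h STM rose by 0.38 ± 0.10 on the log2 scale (SE, edgeR adjusted p = 0.0135), with all 72 h libraries above all 6 h libraries. Without 6 h replicate 4, its lowest library, that rise was 0.30 (edgeR adjusted p = 0.0561). The 12 member contigs of the component held 98.7% of its counts, but the share of the contig with the most counts ran from 0 to 77.5% across libraries, so only the sum is given.

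KNAT1, which in Arabidopsis acts with STM in the meristem and shapes stems, showed no call in any of the 6 comparisons. Its sum (comp126867_c1) gave 520.5, 472 and 619 normalized counts at 0 h and 422, 537, 502 and 476 at 6 h. The 24 h libraries gave 481, 527, 585 and 492, and the 72 h libraries 530.4, 563, 563 and 656. The time points overlapped, apart from the highest library at 72 h, which exceeded all others. The nearest to a call was 72 h against 6 h, with means of 578 ± 54.3 and 484 ± 48.2 (SD, n = 4 each) and a log2 fold change of 0.25 ± 0.10 (SE, edgeR adjusted p = 0.0813). With the fit limited to those 2 times it passed (edgeR adjusted p = 0.036).

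KNAT6, which acts with STM in the meristem and at the boundary of new organs, was lower at 24 h. Its sum (comp113411_c0) gave 81.0, 71.3 and 82.5 normalized counts at 0 h and 75.3, 77.9, 68.5 and 71.3 at 6 h. At 24 h it gave 57.4, 57.2, 58.7 and 46.9, so that all 24 h libraries lay below all 0 h and all 6 h libraries. At 72 h the libraries spread widely, at 47.5, 55.4, 63.8 and 96.9. KNAT6 fell at 24 h against 0 h by 0.51 ± 0.15 on the log2 scale (SE, edgeR adjusted p = 0.00994), a call that held under every alternative tried. At 24 h against 6 h the log2 fold change was -0.41 (edgeR adjusted p = 0.0324), and this call was lost in 4 of 15 fits that left out 1 library and in 3 of 9 other settings. These were fits without 6 h replicate 1, 2 or 4 or 24 h replicate 4 (adjusted p of 0.0518 to 0.112), with DESeq2 (0.0523), with limma (0.0671) and with no filter (0.094). At 72 h against 0 h the log2 fold change was -0.33 (edgeR adjusted p = 0.211). The highest 72 h value, 96.9, came from replicate 4, the library with the smallest total, on 41 counts. Without it the difference was -0.51 (edgeR adjusted p = 0.0285).

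KNAT2, the close relative of KNAT6, was the best match in 3 sums, of which 1 was called in any comparison. The first (comp136649_c0) was a mix, with 86.3% of its counts on contigs that matched KNAT2 best and 13.7% on contigs that matched KNAT1 best. It gave 46.2, 46.4 and 47.1 normalized counts at 0 h and 41.9, 36.5, 26.1 and 44.6 at 6 h. The 24 h libraries gave 47.6, 51.7, 48.9 and 45.9, and the 72 h libraries 29.4, 37.7, 41.5 and 16.5. The 0 h and 24 h libraries were close together, whereas all 6 h and all 72 h libraries lay below them. It fell at 72 h against 24 h by 0.54 ± 0.18 on the log2 scale (SE, edgeR adjusted p = 0.0205). The lowest library, 72 h replicate 4, rested on 7 counts, and without it the log2 difference was -0.40 (edgeR adjusted p = 0.0644). Against 0 h the 6 h difference was -0.31 (edgeR adjusted p = 0.326) and the 72 h difference -0.47 (edgeR adjusted p = 0.136).

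The second KNAT2 sum (comp110821_c0) was level, with means of 27.7, 27.4, 26.2 and 26.9 normalized counts at 0, 6, 24 and 72 h and no call. The remaining sum with KNAT2 as best match (comp110442_c2) rested on a weak match, with E values of 2e-10 and 3e-10 for its contigs. The KNAT2 contigs of comp136649_c0 and comp110821_c0 had E values of 1e-36 or smaller, that is, closer matches. In the nonredundant protein database both contigs of comp110442_c2 matched a protein named fused compound leaf 1 best. Whether this sum is a KNAT2 gene was not tested. It was low and scattered, at 8.10, 8.29 and 14.4 normalized counts at 0 h. Its 6 h libraries gave 8.64, 13.9, 8.16 and 11.7, and its 24 h libraries 11.3, 31.6, 15.4 and 22.3. At 72 h it gave 23.6, 9.70, 17.5 and 4.72. Its log2 fold change at 24 h against 0 h, 0.91 ± 0.38 (SE), was the largest of the 12 sums in that comparison and missed the threshold (edgeR adjusted p = 0.0565). It passed with no filter (adjusted p = 0.038) and without 0 h replicate 3 (log2 difference 1.31, adjusted p = 0.0361), 24 h replicate 1 (1.12, 0.0142) or 24 h replicate 3 (1.02, 0.0401). Without 24 h replicate 2, its highest library, the difference was 0.52 (adjusted p = 0.291).

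AS1, which with its partner AS2 represses KNAT1, KNAT2 and KNAT6 in leaf primordia, stayed within a narrow range. Its main sum (comp136420_c0) gave 461, 489 and 486 normalized counts at 0 h and 443, 449, 386 and 408 at 6 h. At 24 h it gave 478, 451, 496 and 526, and at 72 h 455, 419, 482 and 418. All 6 h libraries lay below all 0 h and all 24 h libraries. At 6 h against 0 h the log2 fold change was -0.18 ± 0.08 (SE, edgeR adjusted p = 0.159). AS1 rose at 24 h against 6 h by 0.20 ± 0.07 on the log2 scale (SE, edgeR adjusted p = 0.0404), and this call was lost with TMM normalization (adjusted p = 0.0637), with DESeq2 (0.0638) and without 6 h replicate 3 (0.122), among others. A second sum that matched AS1 (comp95100_c0) had means of 88.8, 78.9, 91.6 and 79.7 normalized counts at 0, 6, 24 and 72 h and no call.

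ATHB8, which marks procambium, the tissue that becomes vascular strands, was the member with the smallest adjusted p against 0 h. Its sum (comp133757_c0) gave 182, 220.4 and 219 normalized counts at 0 h and 155, 137, 181 and 151 at 6 h. At 24 h it gave 143, 116, 161 and 148, and at 72 h 183, 139.7, 172 and 178. All 6 h and all 24 h libraries lay below all 0 h libraries, and the 72 h libraries reached into the 0 h range. ATHB8 averaged 142 ± 19.1 normalized counts at 24 h (SD, n = 4) against 207 ± 21.7 at 0 h (SD, n = 3). It fell at 24 h by 0.55 ± 0.12 on the log2 scale (SE, edgeR adjusted p = 0.000914), and this call held under every alternative tried. At 6 h the log2 fold change was -0.43 ± 0.13 (SE, edgeR adjusted p = 0.0239). That call was lost without 0 h replicate 2 or 3 or 6 h replicate 2 or 4, with adjusted p up to 0.11. At 72 h the log2 fold change was -0.33 ± 0.13 (SE, edgeR adjusted p = 0.101). The 3 member contigs of the component held 89.9% of its counts. The share of the contig with the most counts ran from 0 to 100% across libraries, so only the sum is given.

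Markers of cambium and phloem were called in both directions at 6 h and only lower at 24 h. PXY, a receptor of the vascular cambium, had log2 fold changes of -0.34 at 6 h and -0.62 at 24 h (edgeR adjusted p = 0.049 and 0.0001). WOX4, which acts downstream of PXY, had log2 fold changes of -0.83 and -0.80 (edgeR adjusted p = 0.019 and 0.0053). The phloem sugar transporter SUC2, in 2 components, was higher at 6 h by 0.80 and 0.81 (edgeR adjusted p = 5e-06 and 1e-05), and the phloem regulator APL was not called. So 4 of the 5 components of this list were called at 6 h, 2 in each direction, and 2 at 24 h, both lower. Over all tested rows 15.3% were called at 6 h and 41.8% at 24 h. The summed level of the 5 components lay between 1263 and 1339 normalized counts at 0 h and between 1768 and 2076 at 6 h. It lay between 1102 and 1496 at 24 h and between 1187 and 1458 at 72 h. Of the 5 xylem components, 0 were called by edgeR at 6 h or 72 h and 1 at 24 h, where XCP1 was higher by 0.61. The part of vascular tissue in the ATHB8 values was not tested. Since whole buds were sampled, fewer cells of a type and less RNA per cell cannot be told apart for any gene.

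**Figure D2:**
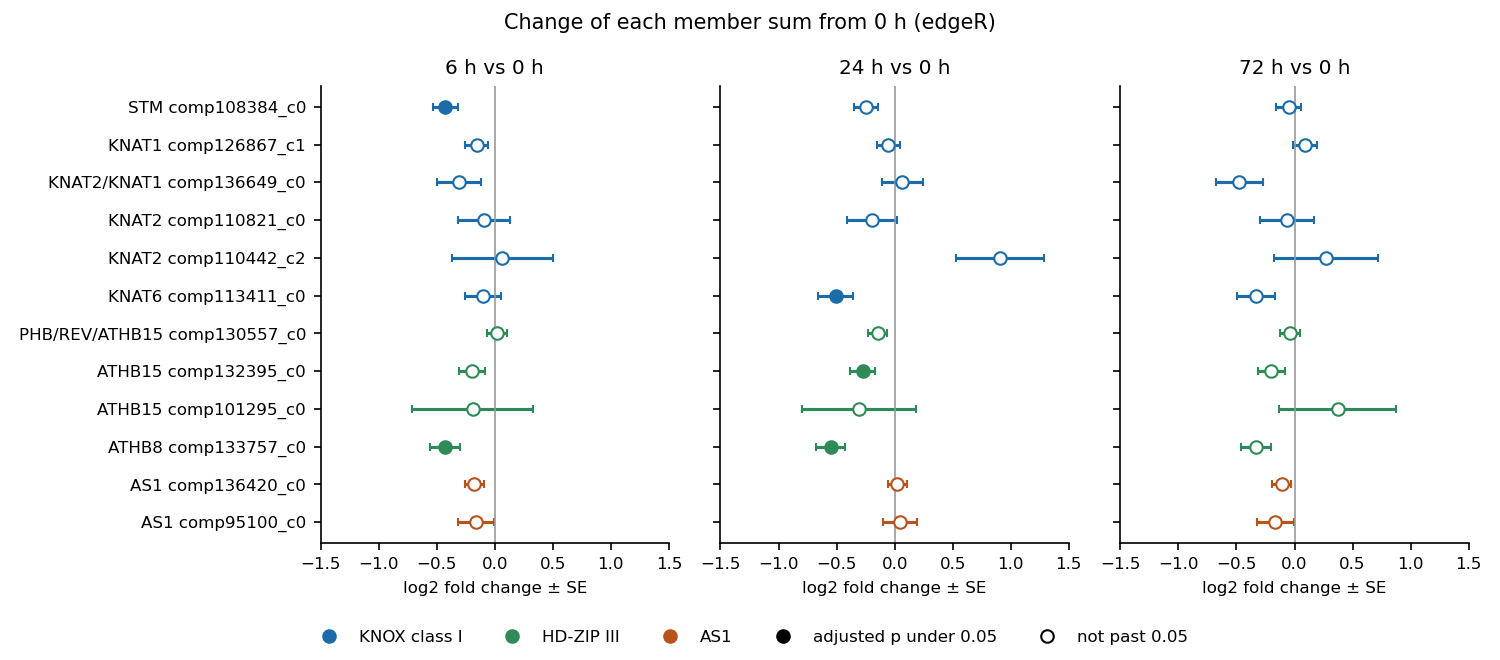
Log2 fold change from 0 h (horizontal axes, bars ± SE) of the 12 member sums at 6, 24 and 72 h, with filled points past an edgeR adjusted p of 0.05. STM and ATHB8 are filled at 6 h, KNAT6, ATHB15 and ATHB8 at 24 h, and no point at 72 h.

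PHB and REV, the HD-ZIP III genes best known for adaxial identity and for meristem formation in leaf axils, shared 1 component with ATHB15 that was not called. Of this sum (comp130557_c0), 51.5% of counts lay on contigs that matched PHB best, 34.1% on REV and 14.4% on ATHB15. It gave 1199.5, 1296 and 1225 normalized counts at 0 h and 1273, 1219, 1251 and 1277 at 6 h. At 24 h it gave 1106, 1018, 1039.6 and 1323, and at 72 h 1278, 1109, 1185 and 1266. Of the 24 h libraries, replicates 1 to 3 lay below every 0 h library and replicate 4 above them. At 24 h against 0 h the log2 fold change was -0.15 ± 0.08 (SE, edgeR adjusted p = 0.17). Without 24 h replicate 4 it was -0.23 (edgeR adjusted p = 0.0177), and with a replicate block -0.19 (edgeR adjusted p = 0.0422).

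Taken apart by best match, the 3 parts of this component did not all give the same test result. The contigs that matched ATHB15 gave 144, 157, 150.1 and 119 normalized counts at 6 h, against 166, 210.5 and 232 at 0 h, without overlap. They fell by 0.50 ± 0.13 on the log2 scale (SE, edgeR adjusted p = 0.0131). For the PHB contigs the log2 fold change at 6 h was 0.12 (edgeR adjusted p = 0.506) and for the REV contigs 0.07 (edgeR adjusted p = 0.782). The difference between the parts was not tested, nor was how reads were shared out among such similar contigs. None of the 3 parts was called at 24 or 72 h against 0 h.

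**Figure D3:**
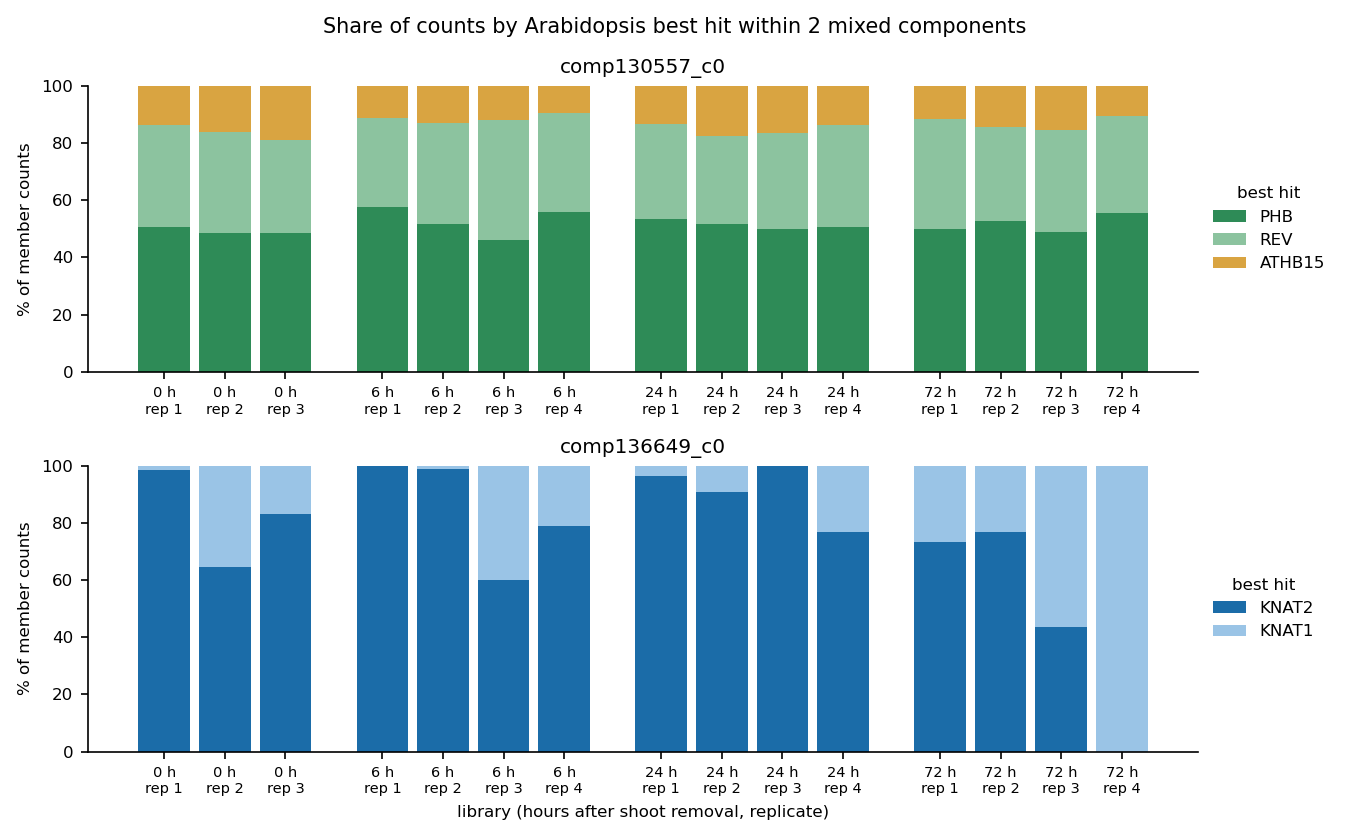
Share of the member counts (%) in each library of comp130557_c0 and comp136649_c0, 2 of the 4 components with more than 1 member as best match, coloured by the Arabidopsis gene matched best. In comp130557_c0 the order PHB, REV, ATHB15 is the same in all 15 libraries, whereas in comp136649_c0 the share of KNAT2 contigs runs from 0 in 72 h replicate 4 to 100% in 6 h replicate 1 and 24 h replicate 3.

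The same division of the mixed KNOX component showed its fall at 72 h on the KNAT2 contigs. These gave 21.6, 29.0, 18.1 and 0 normalized counts at 72 h, against 45.8, 46.9, 48.9 and 35.3 at 24 h, a log2 fold change of -1.13 ± 0.32 (SE, edgeR adjusted p = 0.00879). The 0 came from 72 h replicate 4, where the 7 counts of the sum all lay on KNAT1 contigs. The divided counts were not fitted again without that library. The KNAT1 contigs of this component gave 7.81, 8.70, 23.3 and 16.5 at 72 h, against 1.80, 4.77, 0 and 10.6 at 24 h, and were not called (edgeR adjusted p = 0.0974). The 2 sets of contigs thus differed in sign, on few counts, and how reads were divided between such similar contigs was not tested.

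ATHB15, which is expressed in meristems and developing vascular strands, had its main sum in a component of its own (comp132395_c0). It gave 349, 393 and 443 normalized counts at 0 h and 313, 333, 369 and 374 at 6 h. At 24 h it gave 307, 269, 343 and 402, and at 72 h 365, 321, 335 and 370.1. The 6 h and the 24 h libraries overlapped the 0 h range. At 6 h against 0 h the log2 fold change was -0.19 ± 0.11 (SE, edgeR adjusted p = 0.286), not a call. The log2 fold change at 24 h against 0 h was -0.28 ± 0.11 (SE) and only just passed (edgeR adjusted p = 0.0485). It did not pass in 12 of 15 fits that left out 1 library and in 5 of 9 other settings, among them DESeq2 (adjusted p = 0.0799) and limma (0.0708). The adjusted p was highest without 0 h replicate 3 (0.284, log2 difference -0.17). The remaining ATHB15 sum (comp101295_c0) stayed at 2.06 to 11.8 normalized counts over all 15 libraries, with no call.

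Other genes of the same pathways were taken from 8 lists of 61 genes, of which 39 had a component that passed the filter and whose counts lay mostly on contigs matching that gene (59 components). Against 0 h, 10 of 59 were called at 6 h (8 higher, 2 lower), 20 at 24 h (10 in each direction) and 6 at 72 h (4 higher, 2 lower). These are 16.9%, 33.9% and 10.2%, beside the 15.3%, 41.8% and 13.2% over all rows. The shares over all rows are also the background for the counts of each list below.

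KNAT3, a class II KNOX gene of differentiating tissue, rose at 6 and 24 h. Its component had means of 349.6, 498, 689 and 353 normalized counts at 0, 6, 24 and 72 h. The log2 fold change was 0.53 at 6 h (edgeR adjusted p = 0.0011) and 1.00 at 24 h (edgeR adjusted p = 7e-08), with no overlap with 0 h at either time, and 0.03 at 72 h (edgeR adjusted p = 0.91). Among all 5 class II components, 1 was called higher and 1 lower at 6 h, 1 higher at 24 h and 1 lower at 72 h. Of 5 components of the BELL proteins, the homeodomain partners that KNOX proteins need to enter the nucleus, 1 was called higher at 6 h and at 24 h and none at 72 h. PNY, with the most counts of these, had a log2 fold change of -0.33 at 72 h (edgeR adjusted p = 0.078).

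Of the KNOX repressors and organ-boundary genes, edgeR called 0 of 6 components against 0 h at 6, 24 or 72 h. The component with the most counts, of BOP2, which acts at the base of leaves to keep KNOX genes off, had log2 fold changes of 0.35, 0.05 and 0.01 (edgeR adjusted p = 0.074, 0.8 and 0.97). AS2, the partner of AS1, had no component that was tested. In the WUSCHEL-CLAVATA list, whose genes set the size of the stem cell pool, WUS and CLV3 were not tested either. Of its 13 components, 3 were called at 6 h (2 higher), 4 at 24 h (2 higher) and 1, higher, at 72 h. That 1 was a component of the receptor kinase BAM1, with means of 33.8, 52.6, 51.7 and 82.0 normalized counts at 0, 6, 24 and 72 h and a log2 fold change of 1.19 at 72 h (edgeR adjusted p = 9.6e-05). The component with the most counts, also BAM1, had a log2 fold change of 0.13 at 72 h (edgeR adjusted p = 0.37).

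Genes that regulate HD-ZIP III expression or function were compared next. Most restrain it, while AGO10 shields HD-ZIP III transcripts in Arabidopsis by binding the microRNA. Of 10 components for the microRNA pathway and the small ZPR inhibitors, edgeR called 0 at 6 h and 0 at 72 h. At 24 h 4 were called, with DCL1, the enzyme that cuts microRNA precursors, higher and HEN1, AGO10 and 1 component of HYL1 lower. That HYL1 component had a log2 fold change of -0.37 (edgeR adjusted p = 0.0021). The other HYL1 component had -0.22 and was not called (edgeR adjusted p = 0.284). The component with the most counts, of AGO1, the protein that carries the microRNA to its target, had a log2 fold change of -0.20 at 24 h (edgeR adjusted p = 0.075). Of 11 components of abaxial determinants, edgeR called 0 at 6 h and 5 at 24 h, all lower. At 72 h it called 3, 2 of them higher. Over all tested rows 15.3%, 41.8% and 13.2% were called at 6, 24 and 72 h. The abaxial component with the most counts, of the auxin response factor ETT, had a log2 fold change of -0.39 at 72 h (edgeR adjusted p = 0.0096). YAB2 had one of 1.06 at 72 h (edgeR adjusted p = 0.034).

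HD-ZIP II genes, which HD-ZIP III proteins activate in Arabidopsis, were called higher in 2 of 3 components at 6 h and at 24 h and in none at 72 h. ATHB2, a shade-response gene, had log2 fold changes of 0.47 and 0.31 at 6 and 24 h (edgeR adjusted p = 0.0013 and 0.01). HAT3 had 0.94 and 1.23 in the component that was called (edgeR adjusted p = 0.031 and 0.00084). The other HAT3 component had -0.56 and 0.01 and was not called (edgeR adjusted p = 0.129 and 0.969).

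Hormone genes that KNOX proteins control in Arabidopsis were called higher in 2 of 6 components at 6 h, 3 at 24 h and 1 at 72 h. IPT5, which makes cytokinin, had means of 60.4, 119, 141 and 55.7 normalized counts at 0, 6, 24 and 72 h in its main component, with log2 fold changes of 0.94 at 6 h and 1.14 at 24 h (edgeR adjusted p = 0.0087 and 0.00037). At 72 h that component had a log2 fold change of -0.14 (edgeR adjusted p = 0.81). A second IPT5 component gave the 1 call at 72 h and 1 of the 3 at 24 h. It had 40 counts over the 24 h libraries and 11 over the 72 h libraries, against 1 count over the 0 h libraries. Its 72 h libraries overlapped those at 0 h. For 24 h against 0 h the ratio of the normalized sums was 20.9, with a 95% exact conditional interval of 3.55 to 848 that covers counting error only. GA2OX2, which inactivates gibberellin, had means of 38.7, 87.4, 41.3 and 33.9 normalized counts at 0, 6, 24 and 72 h, with a log2 fold change of 1.25 at 6 h (edgeR adjusted p = 1.9e-05).

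**Figure D4:**
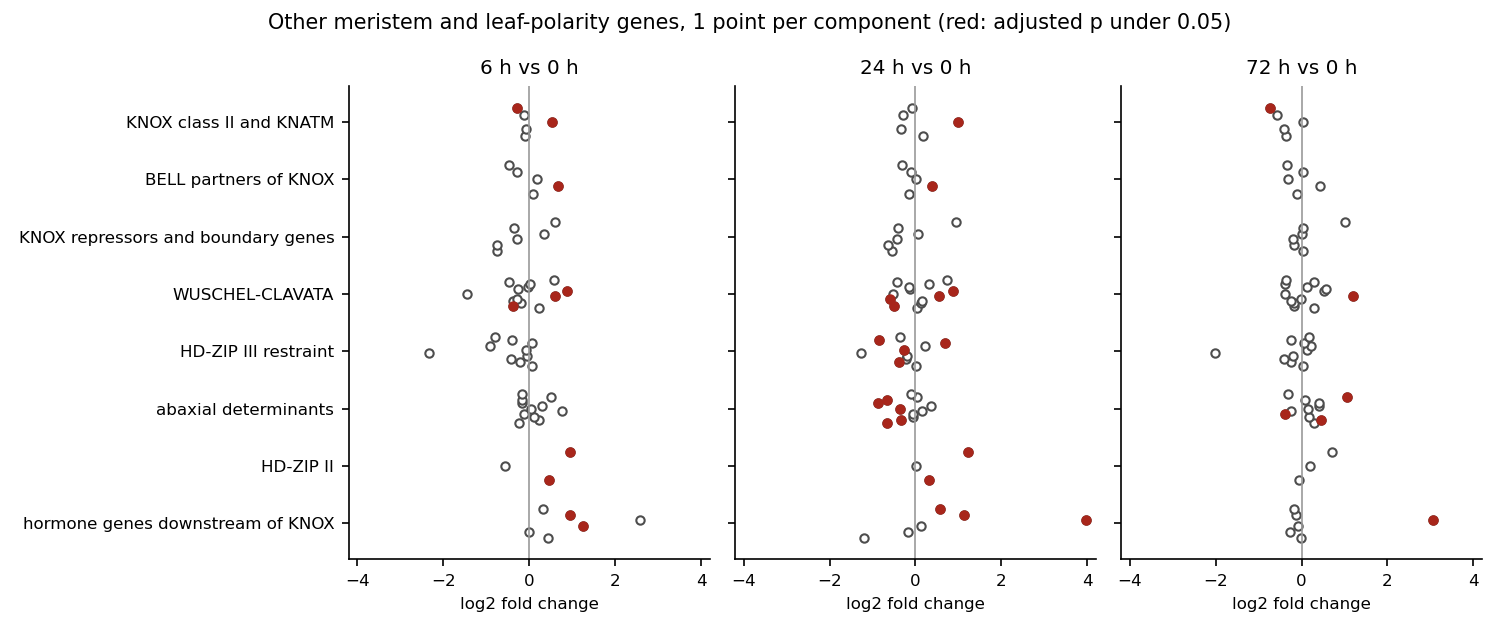
Log2 fold change from 0 h (horizontal axes) at 6, 24 and 72 h of the 59 components in 8 lists of related genes (rows), 1 point per component, red where the edgeR adjusted p is under 0.05. Red points number 10, 20 and 6, and the point farthest to the right at 24 h is the IPT5 component with 1 count over the 0 h libraries.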

How the data were processed

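Poly(A) RNA of crown buds, pooled over several plants per library, was sequenced as stranded paired-end libraries (0 h n = 3, and 6, 24 and 72 h n = 4 each). The authors trimmed reads with Sickle (minimum quality 20, minimum length 70) and assembled them with Trinity, together with reads from other leafy spurge studies. They named contigs by BLASTX, estimated counts with RSEM 1.2.11, and deposited expected counts per contig and per component, counted on 1 strand. The deposited table also holds posterior probabilities of the authors' own comparison, which were not used. No build is involved, as no genome was used.

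Member counts were summed per component and divided by median-of-ratios size factors. Rows with a mean above 5 normalized counts at a time point were rounded to whole numbers and tested with edgeR 4.0.16 (quasi-likelihood, all 15 libraries, Benjamini-Hochberg over 23244 rows) in R 4.3.3. Because this edgeR test gives no SE, the SE was taken as the absolute log2 fold change divided by the square root of the F statistic. The script was tested on simulated data. Alternatives were TMM normalization, no filter, a stricter minimum (above 10 normalized counts in each library of 1 time), whole components, sums per best match, DESeq2 1.42.0, limma 3.58.1 on log2(normalized count + 1), a replicate block, only the 2 groups compared, and leaving out each library. The smallest and largest library totals were 2569254 and 6649334 counts (0 h), 2589107 and 7981890 (6 h), 3750902 and 8766393 (24 h), and 1847115 and 7253556 (72 h).

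The members, lists and tests were chosen with earlier results of these data known. All member sums that passed the filter are named. From each other list, the component with the largest mean and those called with an absolute log2 fold change of at least 1 against 0 h are named (at most 4). Other list genes and marker genes named with values were singled out after their values were seen. Whether replicates of a time point came from separate plantings is not given in the sources used here, so p-values measure the spread between these libraries.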

Additional observations from a re-analysis of the deposited data

Results flagged for a closer look

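KNAT6 (comp113411_c0) at 24 h had 1 library far from the rest of its time point. Replicate 4 gave 46.9 normalized counts, on 42.0 expected counts, where the other 24 h libraries gave 57.2 to 58.7. Of 36 groups of 4 libraries tested in the same way, 1 stood out, and chance sets apart about 1 in 20 such groups.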

How the results depend on the processing

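No result changed direction while past the threshold. Counts of the 12 member sums called changed as follows. At 6 h against 0 h the count was 2, and 3 of 15 sums per best match. At 24 h against 0 h it was 3. It was 4 with TMM normalization (STM added) and 2, without ATHB15, with DESeq2, limma, only the 2 groups compared or sums per best match. With no filter it was again 3, with the sum that matched KNAT2 weakly (comp110442_c2) in place of ATHB15. For any time it was 4, and it was 3 with TMM normalization, DESeq2 or limma and 5 with sums per best match. At 24 h against 6 h the count was 2, and it was 1 with TMM normalization, no filter, limma or only the 2 groups compared and 0 with DESeq2. At 72 h against 24 h it was 1, and 0 with no filter. At 72 h against 6 h it was 1, and it was 0 with no filter and 2 with only the 2 groups compared. Leaving out 1 library at a time gave 1 to 2 calls at 6 h against 0 h, 2 to 5 at 24 h against 0 h, 0 to 1 at 72 h against 0 h, 0 to 2 at 24 h against 6 h, 0 to 2 at 72 h against 24 h, 0 to 1 at 72 h against 6 h and 2 to 4 for any time. The 5 calls came without 24 h replicate 4, and the 1 call at 72 h, KNAT6, without 72 h replicate 4. The stricter minimum left 11 sums to test.

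Replicate numbers were not taken to pair the libraries, and whether they do was not settled. Of 21 pairs with the same number, 1 had a correlation of deviations over 0.1. Their median correlation was 0.03, against -0.01 for pairs with different numbers. Yet 12 of 15 libraries correlated best with a library of their own number, so a fit with a replicate block is also given. With the replicate block, 2 sums were called at 6 h against 0 h, 4 at 24 h against 0 h (the sum of PHB, REV and ATHB15 added), 0 at 72 h against 0 h, 3 at 24 h against 6 h, 1 at 72 h against 24 h, 2 at 72 h against 6 h and 4 for any time. The causes of these changes were not tested. The smallest library limits the low KNOX sums at 72 h.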

Other observations

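Between the later times, 6 of 11 components of abaxial determinants were called higher at 72 h against 24 h and 1 lower, where 42.4% of all tested rows were called. YAB3, a YABBY gene of the lower leaf side, had means of 497 normalized counts at 72 h against 205 at 24 h in one component and 550.4 against 319 in another.

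The rows most like the KNOX and HD-ZIP III sums with the most counts were found by Pearson r of log2(normalized count + 1) over 15 libraries, as a description. For KNAT1 they were components that matched AT2G46240 (r = 0.90), AT5G15760, named as a plastid ribosomal protein (r = 0.89), and AT2G01220 (r = 0.85). For the sum of PHB, REV and ATHB15 they were components that matched AT2G43090, a dehydratase (r = 0.89), AT1G14920, a DELLA protein of gibberellin signalling (r = 0.86), and AT5G12040 (r = 0.86). The libraries share time points and depth, which also enter r.

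Of the marker lists, 0 of 3 root apex genes had a component that was tested. The 2 components that matched ATML1, an epidermis gene, were not called by edgeR against 0 h at any time. LHCB1.1, of the photosynthetic antenna, had a log2 fold change of 1.33 at 24 h (edgeR adjusted p = 5.2e-06), and RBCS1A, of the carbon-fixing enzyme, one of -0.63 (edgeR adjusted p = 3.7e-05).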
